A study of Homo sapiens with 24 samples.

Results

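The semaphorin system of renal carcinoma cells was followed through 10 genes: the ligands SEMA3A, SEMA3B, SEMA3C, SEMA3F, SEMA4B and SEMA5A, and the receptors NRP1, NRP2, PLXNA1 and PLXNB2. They are 10 of 18132 genes that the arrays read with a probe set naming that gene alone, and 10 of the 31 semaphorins, neuropilins and plexins measured. The 10 names were selected by earlier results of the same data, and each gene was then read from the single-gene probe set with the highest mean over all 24 arrays. Which genes these are, and how bright they are, is therefore not a result. A call for 1 gene is that gene's own result in a fit over all genes, and it says nothing about the family as a whole.

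The arrays compared dasatinib, a drug that blocks the tyrosine kinases ABL and SRC and several of their relatives, with its vehicle DMSO in 2 established human renal cell carcinoma lines. Caki-1 cells were treated with 1 µM dasatinib for 6 h, 12 h or 24 h or with DMSO, and 769-P cells were treated in the same 4 ways, which gave 8 groups of 3 arrays. The 769-P line was grown from a primary tumour and the Caki-1 line from a metastasis in the skin, so each stands for 1 patient's tumour. The labels give no time for the DMSO arrays, so each line had 1 DMSO group for all 3 times, and time on the drug cannot be told apart from time in culture. Those 3 DMSO arrays are shared by the 3 comparisons of a line, so these comparisons are not independent of each other.

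Semaphorins are secreted or membrane-bound proteins that steer migrating cells and growing axons, mostly by making them retract. Secreted class 3 semaphorins bind a neuropilin, which has little signalling of its own, and the plexin beside it carries the signal inward by acting on small GTPases and the actin cytoskeleton. Class 4 and class 5 semaphorins sit in the membrane and bind plexins directly, and neuropilins also bind VEGF. In tumours, SEMA3A, SEMA3B and SEMA3F are best known as inhibitors of growth or vessel formation, whereas SEMA3C and NRP2 have often been tied to invasion.

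Levels are log2 signals, 1 unit of which is a 2-fold difference, and a level says nothing about 1 gene relative to another, because probe sets differ in brightness. Array medians lay between 6.01 and 6.08, and arrays of a group correlated at 0.993 to 0.998 across probe sets. The epithelial and renal markers KRT18 and PAX8 averaged 11.8 and 10.4 in Caki-1 and 12.1 and 10.003 in 769-P, and the mesenchymal marker VIM averaged 14.7 and 14.8. CDH1 passed the level for testing in Caki-1 and not in 769-P, and EPCAM the reverse. That level, which a gene's mean over the 12 arrays of a line had to pass, was 5.38 in Caki-1 and 5.36 in 769-P. Of 5 leukocyte markers, 3 passed it in Caki-1 and 2 in 769-P: CD68 (8.25 and 8.78), CD3E (5.47 and 5.50) and, in Caki-1, CD14 (5.54), while PTPRC (3.45 and 3.48) and ITGAM (4.61 and 4.60) did not. Of 7 endothelial markers 3 passed in each line, TIE1 (6.78 and 6.72), PECAM1 (5.89 and 5.54) and VWF (5.76 and 5.63), and CDH5 (5.15 and 5.13) was among the 4 that did not. Several marker sets moved with the drug in Caki-1. The mean of the 4 fibroblast markers, of which 3 passed there, ran from 5.25 to 5.37 on DMSO arrays, 5.90 to 6.19 at 6 h, 6.21 to 6.45 at 12 h and 6.31 to 6.47 at 24 h. The mean of the 7 renal epithelial markers ran from 8.41 to 8.51 on DMSO arrays and 8.88 to 9.10 at 24 h. The endothelial mean ran from 5.21 to 5.42 on DMSO arrays and 5.53 to 5.68 at 24 h, and the leukocyte mean from 5.46 to 5.56 on DMSO arrays and 5.31 to 5.42 at 6 h. In 769-P the fibroblast mean stayed between 4.62 and 4.89 in all 4 groups. The epithelial mean there ran from 8.62 to 8.65 on DMSO arrays, 8.50 to 8.63 at 6 h, 8.40 to 8.60 at 12 h and 8.73 to 8.89 at 24 h. The part of these shifts in the results was not tested.

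In the RefSeq annotation of GRCh38.p14, SEMA3F (bases 50155058 to 50189075) and SEMA3B (50260226 to 50277546) lie 71.2 kb apart on chromosome 3, which also holds PLXNA1 (126983115 to 127037389). SEMA3C (80742538 to 80922389) and SEMA3A (83955777 to 84492725) lie 3033.4 kb apart on chromosome 7. SEMA5A spans 9035033 to 9546075 on chromosome 5, NRP1 33177493 to 33334667 on chromosome 10 and NRP2 205682501 to 205798131 on chromosome 2. SEMA4B spans 90184920 to 90229661 on chromosome 15 and PLXNB2 50274979 to 50307646 on chromosome 22.

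RefSeq promoter sequences of GRCh38.p14 matched 8 of the 10 genes, with 17 start sites. The 250 bases before a start of SEMA5A and of SEMA3C are shown because these genes had the largest rise and the largest fall among the 10. Both are on the minus strand, the first at chr5:9546076-9546325 and the second at chr7:80919052-80919301, and capitals mark the GC box GGGCGG on either strand.
SEMA5A: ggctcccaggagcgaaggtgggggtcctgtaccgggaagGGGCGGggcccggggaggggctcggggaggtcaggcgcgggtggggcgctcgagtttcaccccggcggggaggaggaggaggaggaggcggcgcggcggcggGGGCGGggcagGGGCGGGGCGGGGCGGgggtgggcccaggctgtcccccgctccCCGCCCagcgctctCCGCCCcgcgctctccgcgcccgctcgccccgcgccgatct
SEMA3C: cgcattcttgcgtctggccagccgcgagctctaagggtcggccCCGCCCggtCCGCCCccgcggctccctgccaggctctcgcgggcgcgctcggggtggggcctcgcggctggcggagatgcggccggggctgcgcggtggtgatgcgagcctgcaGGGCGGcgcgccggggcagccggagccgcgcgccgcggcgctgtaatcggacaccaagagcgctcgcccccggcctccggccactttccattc
The SEMA5A stretch held 7 GC boxes, some of which overlap, at 82.0% GC, and the SEMA3C stretch held 3 at 77.6% GC. Over 35116 promoters of the same length the median GC content was 58.0% and 42.6% held a GC box. RefSeq lists another SEMA3C start, whose 250 bases at chr7:80922390-80922639 were 36.4% GC and held no GC box. None of these 3 stretches held the letters of 5 other motifs searched on both strands: TEAD as GGAATG (in 11.9% of all promoters), AP-1 as TGANTCA (6.57%), FOXO as GTAAACA (2.98%), the E-box CACGTG (6.34%) or the CRE TGACGTCA (1.65%). Across the other 14 starts, TEAD letters occurred in 3 (SEMA3B at 2 starts and SEMA3F at 1), FOXO letters at 1 start of SEMA4B and CRE letters at 1 start of SEMA3B. These are matches of letters and not binding sites.

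**Figure D1:**
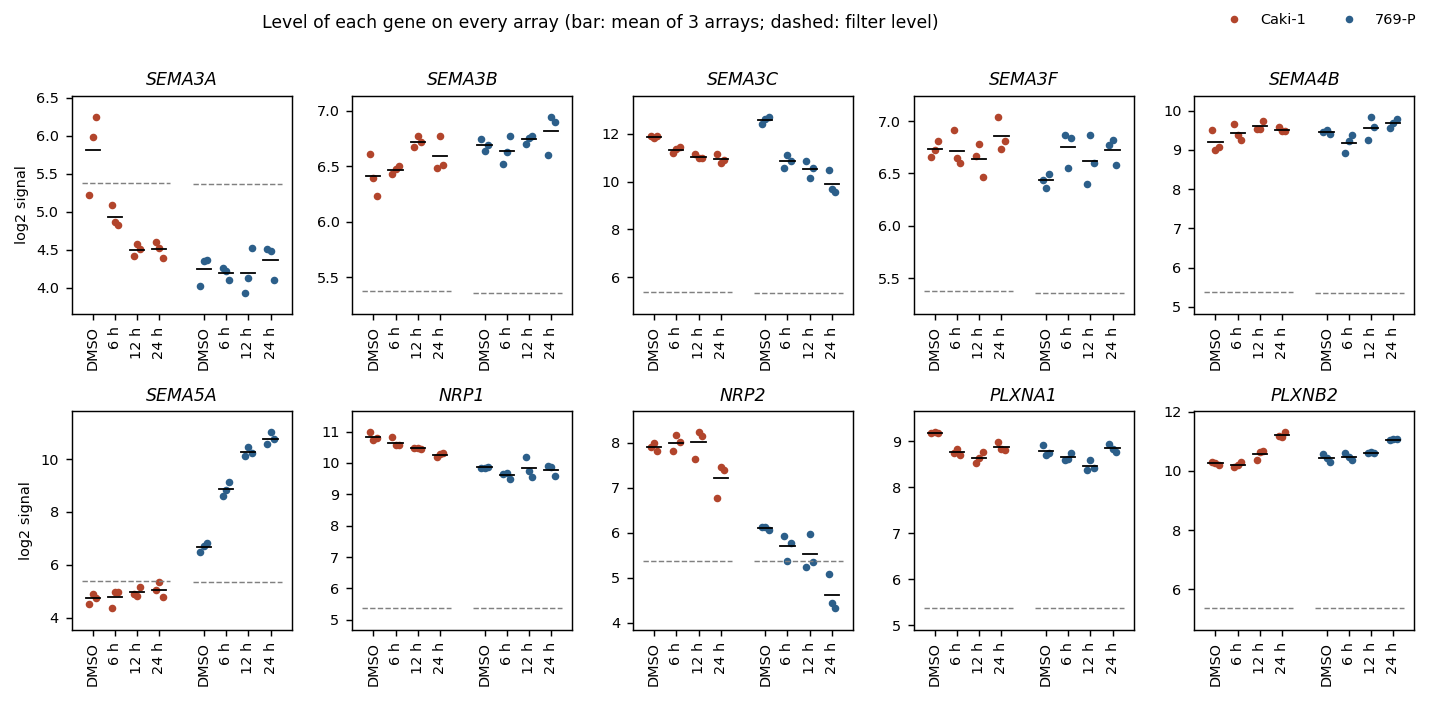
Level of each of the 10 genes on every array, as log2 signal, with the 4 Caki-1 groups left of the 4 769-P groups in each panel and the groups in the order DMSO, 6 h, 12 h and 24 h of dasatinib. Points are arrays, bars are means of 3 arrays and the dashed line is the level a gene's line mean had to pass to be tested; SEMA5A in 769-P climbs from group to group while its Caki-1 points stay under that line.

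SEMA5A, a transmembrane ligand with thrombospondin repeats that binds plexin B3, was the gene of the 10 with the largest change. In 769-P its level was 6.49, 6.70 and 6.83 on DMSO arrays, 8.59, 8.85 and 9.14 at 6 h, 10.11, 10.25 and 10.44 at 12 h, and 10.55, 10.76 and 11.004 at 24 h. No 2 of these 4 groups overlapped, and the order of the groups followed time on the drug. SEMA5A rose by 2.19 ± 0.14 at 6 h (SE, n = 3 arrays a group, adjusted p = 1.89e-08), by 3.59 ± 0.14 at 12 h (adjusted p = 8.44e-11) and by 4.10 ± 0.14 at 24 h (adjusted p = 2.02e-12, 17.1-fold). In Caki-1 its mean over the 12 arrays was 4.88, under the testing level, and every Caki-1 array lay between 4.35 and 5.36, so no change was tested there. All 4 Caki-1 groups overlapped, with means of 4.73 on DMSO and 5.07 at 24 h.

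SEMA3C, a secreted ligand that signals through both neuropilins and that shapes the outflow tract of the heart in mice, fell at all 3 times in both lines. In 769-P its level was 12.40, 12.62 and 12.70 on DMSO arrays, 10.58, 10.85 and 11.10 at 6 h, 10.14, 10.56 and 10.88 at 12 h, and 9.54, 9.70 and 10.50 at 24 h. Every drug array lay below every DMSO array by more than 1 unit, while the 12 h arrays overlapped those of 6 h and of 24 h. The change was -1.73 ± 0.21 at 6 h (adjusted p = 1.49e-05), -2.05 ± 0.21 at 12 h (adjusted p = 1.1e-06) and -2.66 ± 0.21 at 24 h (adjusted p = 3.37e-08, a 6.33-fold fall). In Caki-1 the levels were 11.80, 11.91 and 11.91 on DMSO arrays, 11.20, 11.35 and 11.44 at 6 h, 10.98, 10.996 and 11.15 at 12 h, and 10.79, 10.92 and 11.13 at 24 h. There the change was -0.54 ± 0.08 at 6 h (adjusted p = 0.000212), -0.83 ± 0.08 at 12 h (adjusted p = 1.31e-06) and -0.93 ± 0.08 at 24 h (adjusted p = 1.73e-07, a 1.90-fold fall). The Caki-1 calls at 6 h and 12 h depended on the probe set. With the most variable one the change was -0.20 at 6 h (adjusted p = 0.707) and -0.58 at 12 h (adjusted p = 0.133). With the average of all 6 it was -0.16 at 6 h (adjusted p = 0.556). Of these 6, 4 lay above the testing level in Caki-1, so the average includes signals under it.

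SEMA3A, the secreted ligand that collapses growth cones through NRP1, lay under the testing level in both lines on its brightest probe set, so its changes are a description. In Caki-1 it stood at 5.22, 5.98 and 6.25 on DMSO arrays, 4.83, 4.87 and 5.09 at 6 h, 4.42, 4.51 and 4.58 at 12 h, and 4.39, 4.53 and 4.60 at 24 h. All 9 drug arrays were below all 3 DMSO arrays, the lowest of which was close to the highest 6 h array. The differences from DMSO were -0.88, -1.31 and -1.31 at 6 h, 12 h and 24 h. In 769-P every array lay between 3.94 and 4.53, and all groups overlapped. A second SEMA3A probe set, dimmer over the 24 arrays but above the testing level in Caki-1, read 6.83, 7.005 and 7.01 there on DMSO arrays, 5.54, 5.62 and 5.69 at 6 h, 4.41, 5.04 and 5.08 at 12 h, and 4.21, 4.45 and 4.68 at 24 h. On this probe set too all drug arrays were below all DMSO arrays, with a difference of -1.33 at 6 h. The 12 h and 24 h arrays lay under the testing level, so that set against this level the probe set was at least 2.97-fold lower at both times. These cultures were measured in bulk, so less RNA per cell cannot be told apart from fewer cells with the RNA.

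SEMA3B and SEMA3F lie on the short arm of chromosome 3 in a region often lost from kidney and lung tumours. Both shifted by less than 0.4 units on their brightest probe sets. SEMA3B in Caki-1 read 6.67, 6.72 and 6.78 at 12 h, against 6.23, 6.40 and 6.61 on DMSO arrays, a rise of 0.31 ± 0.11 (adjusted p = 0.0299). This call was lost without Caki-1 DMSO replicate 2 or 3 or 12 h replicate 2 or 3 (adjusted p 0.0661 to 0.147). It was also lost with the most variable probe set (0.17, adjusted p = 0.195). At 6 h and 24 h no SEMA3B change was called in Caki-1 (0.06 and 0.18). The SEMA3B differences in 769-P were -0.05, 0.05 and 0.13, with overlapping groups. The most variable of the 3 SEMA3B probe sets read higher in 769-P, with 6.60, 6.79 and 7.32 at 24 h, against 5.94, 6.01 and 6.13 on DMSO arrays, a rise of 0.88 (adjusted p = 0.00022), and the remaining probe set gave 0.12. The average of the 3 was also called higher there at 24 h (0.37, adjusted p = 0.0034). Against 6 h of drug both were called as well, with rises of 0.72 on the most variable probe set and 0.33 on the average (adjusted p = 0.0017 and 0.0111). SEMA3F, which prefers NRP2 as its receptor, was called at no time in either line. Its 769-P arrays read 6.56, 6.84 and 6.87 at 6 h, against 6.36, 6.44 and 6.50 on DMSO, a difference of 0.32 ± 0.13 between groups that did not overlap (adjusted p = 0.0714). At 24 h the 769-P difference was 0.29 ± 0.13 (adjusted p = 0.0676), and the Caki-1 differences lay between -0.09 and 0.13. Leaving out 1 array, 769-P 6 h replicate 2 or 24 h replicate 3, brought these 2 SEMA3F differences under the threshold (adjusted p = 0.0346 and 0.0461). With the average over its 3 probe sets, SEMA3F was called higher in 769-P at all 3 times, by 0.28, 0.23 and 0.22 (adjusted p = 0.0196, 0.034 and 0.0346). Of these 3 probe sets, 2 lay above the testing level there.

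SEMA4B, a transmembrane ligand of class 4, lay well above the testing level in both lines and shifted by less than 1 unit. In Caki-1 it read 9.53, 9.54 and 9.74 at 12 h, against 9.01, 9.08 and 9.51 on DMSO arrays, a rise of 0.40 ± 0.12 (adjusted p = 0.0143). At 24 h the rise was 0.32 ± 0.12 (adjusted p = 0.0355), although the lower 24 h arrays (9.48 and 9.49) overlapped the highest DMSO array. Both calls were weak: the 12 h call was lost without DMSO replicate 2 or 3 or 12 h replicate 3 (adjusted p 0.0661 to 0.0799), and the 24 h call was lost without DMSO replicate 2 or 3 or any one 24 h array (adjusted p 0.0594 to 0.163), and also with arrays centred on their medians (adjusted p = 0.0723) or with the average of its probe sets (0.20, adjusted p = 0.142). The 6 h difference of 0.24 was not called, but it was without DMSO replicate 1 (0.39, adjusted p = 0.0167). In 769-P no change was called against DMSO (-0.27, 0.12 and 0.23). In 769-P at 6 h, where equally numbered arrays deviated together, a fit with the replicate number as a block was also run, and there the 6 h change of -0.27 passed the threshold (adjusted p = 0.0457). Between drug times, 769-P SEMA4B read 9.56, 9.69 and 9.79 at 24 h, against 8.93, 9.22 and 9.38 at 6 h, a rise of 0.50 ± 0.13 (adjusted p = 0.00525). That rise was 0.12 and not called with the average of its 2 probe sets (adjusted p = 0.343). Of these 2, 1 lay above the testing level in each line, so the averages given for SEMA4B include a signal under it.

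NRP1, the co-receptor of SEMA3A and VEGFA, fell in Caki-1 and was not called in 769-P. The Caki-1 levels were 10.74, 10.80 and 10.97 on DMSO arrays, 10.56, 10.56 and 10.82 at 6 h, 10.43, 10.48 and 10.49 at 12 h, and 10.20, 10.29 and 10.31 at 24 h. The 12 h and 24 h arrays were below every DMSO array and did not overlap each other, whereas the 6 h group overlapped DMSO. The change was -0.37 ± 0.08 at 12 h (adjusted p = 0.00096) and -0.57 ± 0.08 at 24 h (adjusted p = 1.27e-05), and the 6 h change of -0.19 had an adjusted p of 0.0842, which dropped to 0.0106 without 6 h replicate 1. The 12 h call was lost with the average of its probe sets (-0.10, adjusted p = 0.292) and with the most variable one (-0.24, adjusted p = 0.1). Of the 6 probe sets averaged, 2 lay above the testing level in Caki-1. In 769-P the DMSO arrays read 9.85, 9.85 and 9.87, the changes were -0.24, -0.03 and -0.07, and all 6 h arrays lay lower than DMSO (9.50 to 9.70, adjusted p = 0.18). There the 12 h arrays spread from 9.56 to 10.19.

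NRP2, the co-receptor of SEMA3F and VEGFC, fell late in both lines on its brightest probe set. In 769-P it read 6.06, 6.12 and 6.12 on DMSO arrays, 5.38, 5.78 and 5.94 at 6 h, 5.23, 5.36 and 5.96 at 12 h, and 4.31, 4.43 and 5.07 at 24 h. All 9 drug arrays lay below the DMSO arrays, and the 24 h arrays lay under the testing level of 5.36, which the gene passed through its other groups. Set against the testing level, this probe set was therefore at least 1.67-fold lower at 24 h than on DMSO (adjusted p = 1.53e-05 on the measured means of 4.60 and 6.10). Of the 4 NRP2 probe sets above the testing level in 769-P, 2 read lower at 24 h and 2 read higher. At 12 h the change was -0.58 ± 0.21 (adjusted p = 0.0322), a call lost without any one DMSO array or without 12 h replicate 1 or 3 (adjusted p 0.0552 to 0.139), and the 6 h change of -0.40 was not called (adjusted p = 0.174). In Caki-1 NRP2 read 6.78, 7.40 and 7.46 at 24 h, against 7.82, 7.92 and 7.99 on DMSO arrays, a change of -0.70 ± 0.18 (adjusted p = 0.00304) that was not called with the average of its probe sets (-0.20, adjusted p = 0.0828). Of the 9 probe sets in that average, 6 lay above the testing level in Caki-1. The 6 h and 12 h groups overlapped DMSO in Caki-1, with changes of 0.09 and 0.11.

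PLXNA1, the plexin that signals for class 3 semaphorins bound to a neuropilin, fell at all 3 times in Caki-1 and at 12 h in 769-P. In Caki-1 it read 9.17, 9.17 and 9.19 on DMSO arrays, 8.70, 8.73 and 8.84 at 6 h, 8.53, 8.63 and 8.77 at 12 h, and 8.80, 8.83 and 8.99 at 24 h. All drug arrays lay below all DMSO arrays, and the 6 h arrays overlapped those of 12 h and of 24 h. The change was -0.42 ± 0.08 at 6 h (adjusted p = 0.00125), -0.54 ± 0.08 at 12 h (adjusted p = 5.84e-05) and -0.31 ± 0.08 at 24 h (adjusted p = 0.00396). The 6 h and 24 h calls were lost with the average of its 2 probe sets (-0.18 and -0.15, adjusted p = 0.0612 and 0.0651). The second of these lay under the testing level, with a mean of 4.35 over the 24 arrays. In 769-P PLXNA1 read 8.38, 8.43 and 8.59 at 12 h, against 8.70, 8.75 and 8.92 on DMSO arrays, a change of -0.32 ± 0.09 (adjusted p = 0.00758). The 769-P changes at 6 h and 24 h were -0.14 and 0.06, with overlapping groups.

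PLXNB2, a plexin that binds class 4 semaphorins and that acts through RhoA, rose late in both lines. Caki-1 arrays read 10.21, 10.28 and 10.28 on DMSO, 10.13, 10.21 and 10.30 at 6 h, 10.37, 10.62 and 10.68 at 12 h, and 11.15, 11.19 and 11.29 at 24 h. In 769-P they read 10.29, 10.42 and 10.57 on DMSO, 10.36, 10.47 and 10.60 at 6 h, 10.61, 10.61 and 10.62 at 12 h, and 11.04, 11.06 and 11.06 at 24 h. In each line the 24 h arrays stood above all others and the 6 h arrays overlapped DMSO. PLXNB2 rose in Caki-1 by 0.30 ± 0.08 at 12 h (adjusted p = 0.0048) and by 0.96 ± 0.08 at 24 h (adjusted p = 5.87e-08, 1.94-fold), and in 769-P by 0.63 ± 0.08 at 24 h (adjusted p = 3.43e-06). The 12 h change in 769-P was 0.19 ± 0.08, between groups that did not overlap (adjusted p = 0.056, and 0.0112 without 769-P DMSO replicate 1).

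**Figure D2:**
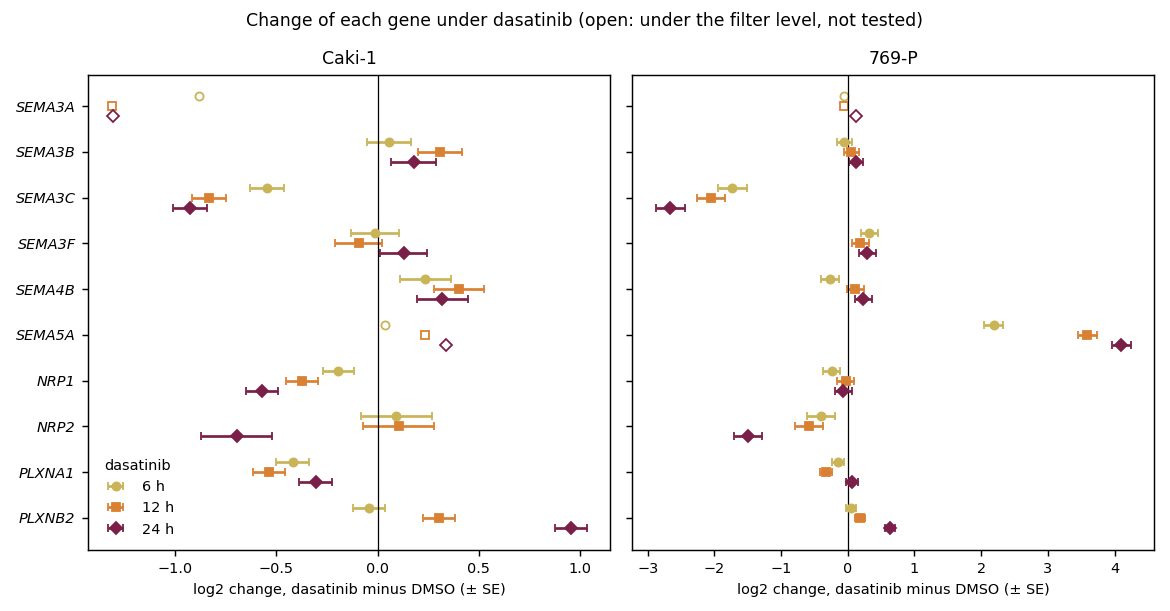
Change of each gene under dasatinib as the log2 difference from DMSO, in Caki-1 on the left and 769-P on the right, with error bars of 1 SE (n = 3 arrays a group) and a different scale on each horizontal axis. Yellow circles are 6 h, orange squares 12 h and purple diamonds 24 h, and open symbols without bars were under the testing level; SEMA5A reaches 4.10 and SEMA3C -2.66 in 769-P, and the NRP2 point at 24 h there rests on arrays under that level.

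The calls among the 10 genes are counted here beside those among all genes. In Caki-1, where 8 of the 10 were tested, 0 rose and 2 fell at 6 h, when 12.3% of all 12423 genes tested rose and 14.0% fell. By 12 h the counts were 3 higher and 3 lower, beside 24.1% and 24.4% of all genes, and by 24 h they were 2 higher and 4 lower, beside 32.9% and 29.9%. In 769-P, where 9 were tested, 1 rose and 1 fell at 6 h, beside 16.4% and 14.5% of 12354 genes. At 12 h, 1 rose and 3 fell, beside 24.9% and 22.6%, and at 24 h, 2 rose and 2 fell, beside 31.1% and 24.6%. SEMA3A in both lines and SEMA5A in Caki-1 were the genes left untested, and since the names were picked on such values, nothing is read from these counts.

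From 6 h to 24 h of drug, 4 of 8 genes tested in Caki-1 and 5 of 9 in 769-P were called, beside 53.7% and 44.3% of all genes. PLXNB2 rose between these times by 1.00 ± 0.08 in Caki-1 (adjusted p = 7.83e-08) and by 0.58 ± 0.08 in 769-P (adjusted p = 1.61e-05). NRP2 changed by -0.79 ± 0.18 in Caki-1 (adjusted p = 0.00153). In 769-P its 24 h arrays were under the testing level. Against this level NRP2 was at least 1.26-fold lower there, a bound that was not itself tested (adjusted p = 0.000489 on the measured means of 4.60 and 5.70). The comparisons with 6 h use the same 24 h arrays as those with DMSO, so they are not independent support for the late shift of these 2 receptors. SEMA3C fell further, with a change of -0.38 ± 0.08 in Caki-1 (adjusted p = 0.00134, but 0.0764 with all 24 arrays in the fit) and of -0.93 ± 0.21 in 769-P (adjusted p = 0.00212). SEMA5A rose further in 769-P by 1.91 ± 0.14 (adjusted p = 2.55e-08), and SEMA4B was the fifth gene called there. NRP1 changed further in Caki-1, by -0.38 ± 0.08 (adjusted p = 0.00083, and 0.0892 with the most variable probe set).

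Whether the lines responded differently was tested over all 24 arrays, as the change in Caki-1 less the change in 769-P. SEMA3C differed at each time, by 1.19 ± 0.26 at 6 h, 1.22 ± 0.26 at 12 h and 1.73 ± 0.26 at 24 h (adjusted p = 0.00314, 0.00118 and 1.12e-05), since its fall was shallower in Caki-1. SEMA5A was also called at each time, but it entered the test through 769-P alone and lay under the testing level in Caki-1 throughout, so no size of a difference in response is given for it. These were the 2 genes called of 9 tested at 6 h and at 12 h, beside 8.09% and 18.9% of 12864 genes. At 24 h, 6 of 9 were called, beside 36.0% of all genes. The 4 added were NRP1 (-0.50 ± 0.16, adjusted p = 0.0157), NRP2 (0.80 ± 0.30, adjusted p = 0.0372, with the 24 h arrays of 769-P under the testing level), PLXNA1 (-0.36 ± 0.12, adjusted p = 0.0188) and PLXNB2 (0.33 ± 0.11, adjusted p = 0.0239). Set against the testing level, the NRP2 fall in 769-P was at least 0.74 units, beside a change of -0.70 in Caki-1. The size of the NRP2 difference therefore rests on signals under that level. Each of the 4 was lost when a gene's probe sets were averaged (adjusted p 0.0941 to 0.593). For NRP1, NRP2 and PLXNA1 these averages include probe sets under the testing level in both lines, and for PLXNB2 they do not. Leaving out 1 array lost the NRP2 difference in 9 of 12 fits and those of PLXNA1 and PLXNB2 in 3 fits each, and the count of 6 dropped to 3 without Caki-1 24 h replicate 3. No difference was called for SEMA3B, SEMA3F or SEMA4B, whose SEs were 0.15, 0.18 and 0.19, except SEMA4B at 6 h without Caki-1 DMSO replicate 1 (0.66, adjusted p = 0.0282) and SEMA3B at 24 h on its most variable probe set (-0.69, adjusted p = 0.00671).

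**Figure D3:**
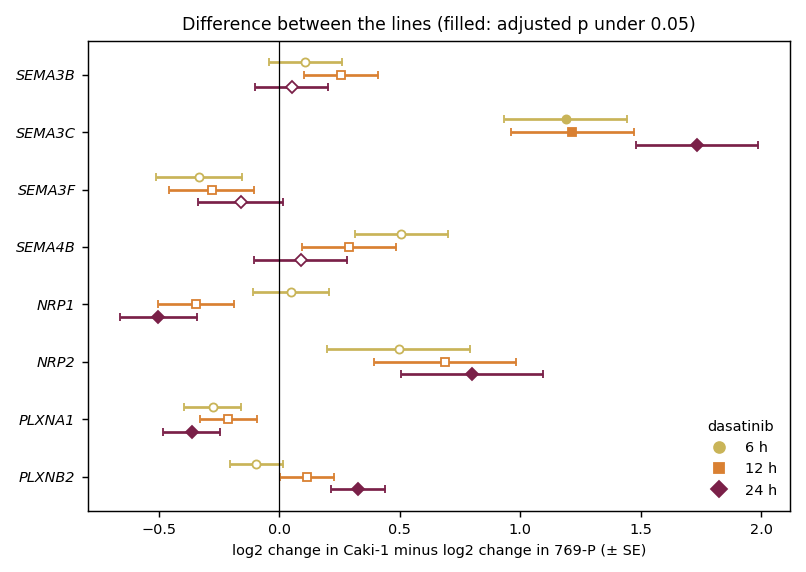
Difference between the lines for the 8 genes above the testing level in both lines, as the log2 change in Caki-1 minus the log2 change in 769-P, with error bars of 1 SE. Filled symbols have an adjusted p under 0.05. SEMA3C lies to the right of 0 at 6 h, 12 h and 24 h, and the 4 receptor genes are filled at 24 h alone. The NRP2 point at 24 h rests on 769-P arrays under the testing level.

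Under DMSO the lines differed in most of these genes, as did 58.7% of all genes tested. Of 9 tested, 4 were higher and 3 lower in Caki-1 DMSO arrays than in 769-P DMSO arrays. NRP2 was higher in Caki-1 by 1.81 ± 0.21 (adjusted p = 5.2e-08), NRP1 by 0.98 ± 0.11 (adjusted p = 4.4e-08) and PLXNA1 by 0.39 ± 0.08 (adjusted p = 0.000295). SEMA3C differed by -0.70 ± 0.18 (adjusted p = 0.00167). SEMA5A, 1 of the 3 lower, entered this test through 769-P alone. It averaged 4.73 in Caki-1, under the testing level, and 6.67 in 769-P. Against this level it was at least 2.45-fold lower in Caki-1. Its adjusted p of 6.12e-10 is on the measured means, so it rests partly on signals under that level. Thus the 2 neuropilins stood higher in Caki-1, and the ligands SEMA5A and SEMA3C stood higher in 769-P. The calls for SEMA3B (-0.28, adjusted p = 0.0294) and SEMA3F (0.30, adjusted p = 0.0446) were lost when 1 array was left out, SEMA3B in 4 of 6 such fits and SEMA3F in 5 of 6, and SEMA3F also under quantile normalization (adjusted p = 0.0536). SEMA4B (-0.25) and PLXNB2 (-0.17) were not called (adjusted p = 0.122 and 0.0697), and SEMA4B passed without Caki-1 DMSO replicate 1 (adjusted p = 0.0152) and PLXNB2 without 769-P DMSO replicate 3 (adjusted p = 0.0181).

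The other single-gene probe sets of each gene were set beside the one used, at 24 h and where they lay above the testing level. In 769-P the 3 SEMA5A probe sets differed from DMSO by 3.60 to 4.71, and the 4 SEMA3C probe sets by -1.93 to -2.665. In Caki-1 the 4 SEMA3C probe sets gave -0.54 to -1.02. The SEMA5A and SEMA3C directions at 24 h were therefore shared by all such probe sets in 769-P. PLXNB2 had 4, which ran from -0.06 to 0.96 in Caki-1, where 1 of 4 was lower, and from 0.24 to 0.63 in 769-P. NRP2 was the least uniform: its 6 in Caki-1 ran from -0.70 to 0.15, and its 4 in 769-P from -1.50 to 0.13 with 2 higher and 2 lower. In 769-P the NRP2 fall was seen on the brightest probe set and on another, which changed by -0.45 at 12 h and -0.80 at 24 h with no overlap with DMSO. In Caki-1 at 24 h, 5 of 6 were lower, and besides the brightest 3 did not overlap DMSO (-0.27, -0.32 and -0.38). Which transcripts these probe sets read was not given in the sources used here. NRP1 gave -0.57 and -0.31 on its 2 probe sets in Caki-1.

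**Figure D4:**
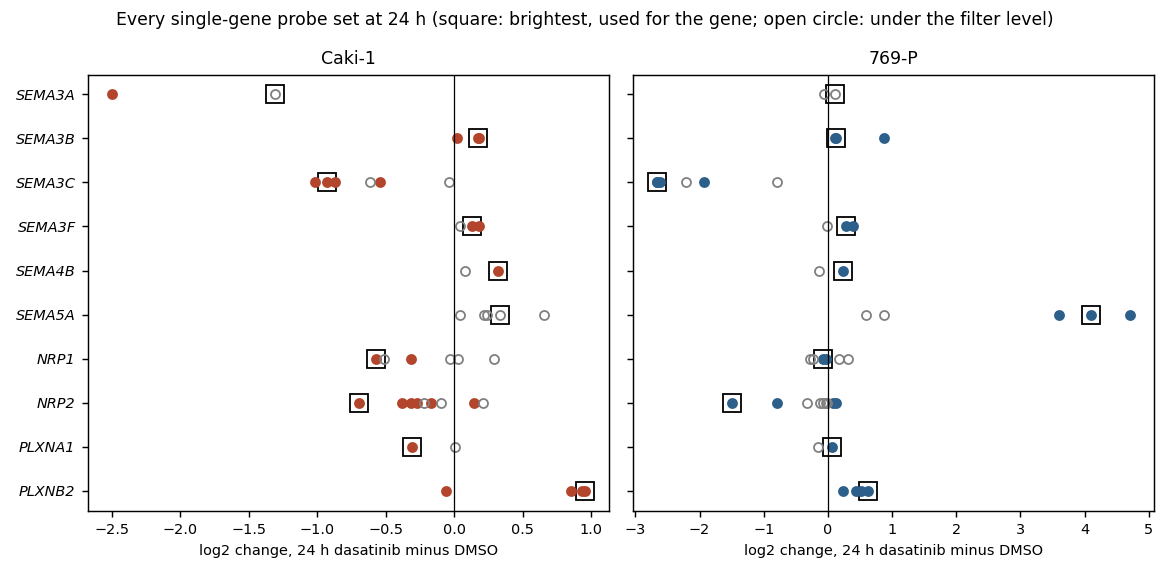
Change at 24 h of every single-gene probe set of the 10 genes, as the log2 difference of dasatinib from DMSO, in Caki-1 on the left and 769-P on the right with different scales. A square marks the probe set used for the gene and open circles lie under the testing level; the SEMA5A probe sets above it in 769-P span 3.60 to 4.71, whereas those of NRP2 lie on both sides of 0.

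For the 5 genes whose 8 group means, centred within each line, had an SD of at least 0.3, the 3 genes with the most similar profile were listed by Pearson's r over these 8 means. The comparison ran over 3077 or 3078 genes that varied as much and passed the testing level in both lines, and it is a description, since the 8 points share arrays, lines and the drug's course. SEMA3A did not pass this level in either line, nor SEMA5A in Caki-1, and the 24 h arrays of NRP2 in 769-P lay under it. The profiles of SEMA3A, SEMA5A and NRP2 therefore rest partly on signals under that level. SEMA5A was closest to CKB (r = 0.995), SORBS2 (0.994) and AFTPH (0.993), and SEMA3C to ETS2 (0.992), FRMD6 (0.989) and PLAUR (0.978). PLXNB2 was closest to FARP1 (0.996), ABCC3 (0.993) and NEO1 (0.991). NRP2 was closest to ERO1A (0.989), HMGB1 (0.989) and CCDC88A (0.985), and SEMA3A to SCO1 (0.978), CEMIP2 (0.959) and BCAR3 (0.952).

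The remaining 21 semaphorins and plexins gave 15 genes above the testing level in each line. Calls higher numbered 1 at 6 h, 6 at 12 h and 7 at 24 h in Caki-1, and 4, 4 and 6 in 769-P. Of all genes tested, 12.3%, 24.1% and 32.9% were higher in Caki-1 and 16.4%, 24.9% and 31.1% in 769-P. In both lines 1 gene was lower at each time, beside 14.0%, 24.4% and 29.9% of all genes in Caki-1 and 14.5%, 22.6% and 24.6% in 769-P. Their median change at 24 h was 0.23 in Caki-1 and 0.13 in 769-P, beside 0.08 and 0.04 over all genes tested. SEMA6A, a transmembrane ligand of plexins A2 and A4, rose at every time in both lines, by 0.78 ± 0.14 in Caki-1 and 1.12 ± 0.14 in 769-P at 24 h (adjusted p = 0.000208 and 3.12e-06). SEMA7A, a lipid-anchored ligand of plexin C1 and of integrins, fell at every time in both lines, with changes of -0.94 ± 0.13 and -1.49 ± 0.20 at 24 h (adjusted p = 1.18e-05 and 8.73e-06).

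The pair SEMA4D and PLXNB1, a ligand and its receptor, rose in both lines at 24 h. SEMA4D read 9.26, 9.29 and 9.32 at 24 h in Caki-1, against 8.13, 8.37 and 8.46 on DMSO arrays, a rise of 0.97 ± 0.10 (adjusted p = 6.19e-07), and it rose by 1.59 ± 0.12 in 769-P (adjusted p = 2.13e-08). PLXNB1 rose by 1.15 ± 0.11 in Caki-1 (adjusted p = 2.72e-07) and by 1.06 ± 0.10 in 769-P (adjusted p = 1.3e-07). In 769-P both genes and SEMA5B were already called higher at 6 h, whereas in Caki-1 SEMA4D and PLXNB1 were called from 12 h. Among these 21 genes, SEMA4D was the one whose response differed between the lines by test (-0.70 ± 0.16 at 6 h, adjusted p = 0.00664). PLXNA3, another plexin of class 3 semaphorins, rose at 24 h by 1.22 ± 0.11 in Caki-1 and 0.92 ± 0.10 in 769-P (adjusted p = 2.24e-07 and 1.37e-06). PLXND1, the receptor of SEMA3E, rose by 0.21 ± 0.09 and 0.60 ± 0.13 (adjusted p = 0.0396 and 0.0011), and SEMA4C, a ligand of PLXNB2, rose in Caki-1 by 0.68 ± 0.11 (adjusted p = 6.65e-05).

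**Figure D5:**
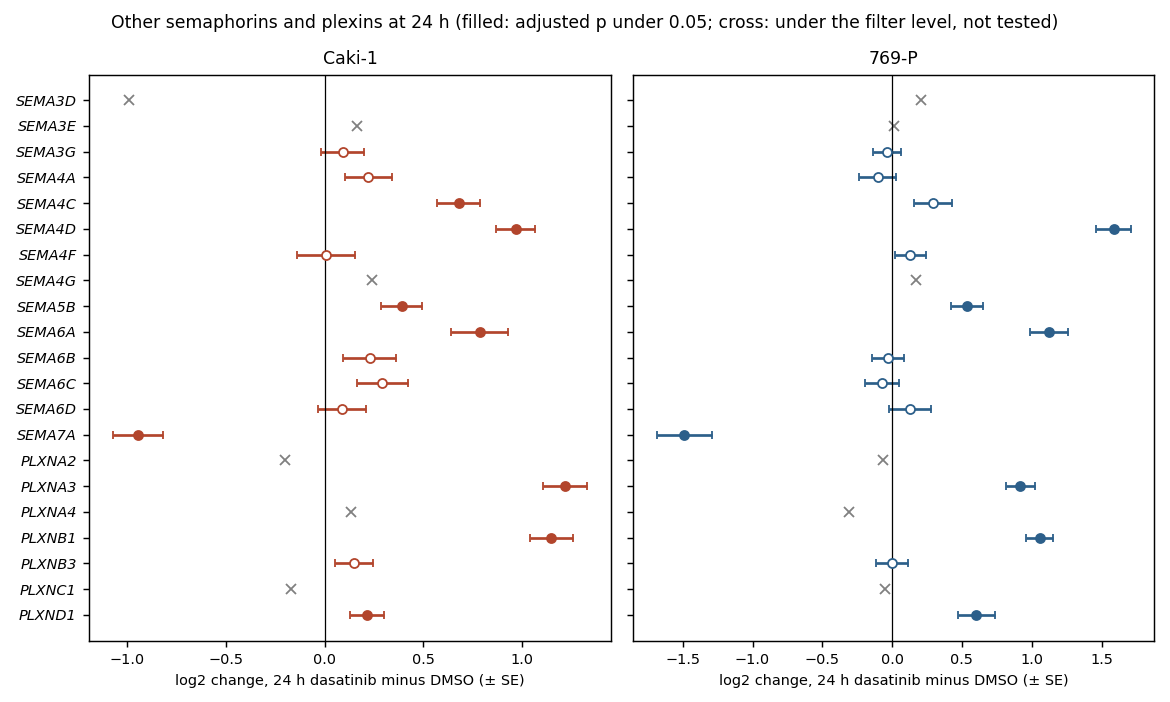
Change at 24 h of the 21 other semaphorins and plexins, as the log2 difference of dasatinib from DMSO with error bars of 1 SE, in Caki-1 on the left and 769-P on the right with different scales. Filled points have an adjusted p under 0.05 and crosses were under the testing level; PLXNA3, PLXNB1, SEMA4D and SEMA6A lie above 0 in both lines and SEMA7A below 0.

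Downstream of plexins, 29 effectors were listed, of which 26 had a single-gene probe set and 21 were tested in Caki-1 and 23 in 769-P. Calls higher numbered 1, 6 and 8 at 6 h, 12 h and 24 h in Caki-1 and 2, 5 and 5 in 769-P. Calls lower numbered 2, 4 and 6 in Caki-1 and 4, 5 and 5 in 769-P. At 24 h the shares of all genes were 32.9% higher and 29.9% lower in Caki-1 and 31.1% and 24.6% in 769-P. At 12 h they were 24.1% and 24.4% in Caki-1 and 24.9% and 22.6% in 769-P. At 6 h they were 12.3% and 14.0% in Caki-1 and 16.4% and 14.5% in 769-P. FARP1, an exchange factor that works with A-type plexins, rose at 24 h by 1.25 ± 0.11 in Caki-1 and 0.76 ± 0.11 in 769-P (adjusted p = 1.5e-07 and 2.8e-05). MICAL2, of a family of enzymes that take actin filaments apart by oxidation, fell at 24 h, with changes of -1.53 ± 0.13 in Caki-1 and -1.96 ± 0.14 in 769-P (adjusted p = 8.08e-08 and 8.79e-09). Its relative MICAL1 rose, by 1.03 ± 0.15 and 0.79 ± 0.12 (adjusted p = 2.87e-05 and 3.89e-05). DPYSL3, a collapsin response mediator that binds the cytoskeleton, fell too, with changes of -0.61 ± 0.09 in Caki-1 and -2.67 ± 0.07 in 769-P at 24 h (adjusted p = 3.66e-05 and 1.17e-13). That DPYSL3 response differed between the lines by 2.06 ± 0.12 (adjusted p = 7.84e-12). GSK3B, a kinase that phosphorylates collapsin response mediators, rose at every time in both lines, by 0.34 ± 0.06 in Caki-1 and 0.48 ± 0.07 in 769-P at 24 h (adjusted p = 0.000159 and 4.06e-05). RND1, a GTPase that binds the inner part of plexins, was highest early in 769-P, at 7.05 on average at 6 h and 6.36 at 12 h, against 5.09 on DMSO arrays. All 3 DMSO arrays lay under the testing level, which RND1 passed in 769-P mainly through its 6 h and 12 h groups. Against this level RND1 was at least 3.23-fold higher at 6 h and 1.99-fold higher at 12 h (adjusted p = 1.42e-07 and 5.37e-06 on the measured means). Since the groups tested also brought the gene into the test, these p-values are no separate support for the bounds. MICAL3 was called lower at every time in Caki-1 (-0.39 ± 0.10 at 24 h, adjusted p = 0.00301). In 769-P the small GTPase RAP1B (-0.22 ± 0.05 at 24 h, adjusted p = 0.00257) was called lower at every time. So was the collapsin response mediator DPYSL2 there (-0.58 ± 0.07 at 24 h, adjusted p = 4.97e-06). In the other line the 24 h means of these genes lay above DMSO. MICAL3 averaged 9.04 against 8.78 in 769-P. In Caki-1 RAP1B averaged 11.90 against 11.75, and DPYSL2 11.43 against 11.11.

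Co-receptors and VEGF genes gave 11 tested in Caki-1 and 12 in 769-P of 16 listed, and 6 proteases that cut semaphorins or neuropilins gave 5 and 6. At 24 h, 2 co-receptor or VEGF genes rose and 1 fell in Caki-1, and 5 rose and 3 fell in 769-P, beside 32.9% and 29.9% of all genes in Caki-1 and 31.1% and 24.6% in 769-P. NRCAM, an adhesion molecule that partners NRP2 in mouse axons, read 9.40, 9.52 and 9.66 at 24 h in 769-P, against 6.50, 6.78 and 7.50 on DMSO arrays, a rise of 2.60 ± 0.21 (adjusted p = 2.82e-08). L1CAM, its relative that partners NRP1, fell by 1.62 ± 0.17 in 769-P at 24 h (adjusted p = 5.85e-07). VEGFA, which binds NRP1, fell by 0.88 ± 0.07 in 769-P at 6 h and rose by 0.58 ± 0.07 at 24 h (adjusted p = 3.07e-07 and 6.15e-06). VEGFC, which binds NRP2, fell in 769-P at all 3 times, with a change of -0.74 ± 0.20 at 24 h (adjusted p = 0.00454). Of the proteases, 3 rose and 1 fell in Caki-1 at 24 h, and 2 rose and 3 fell in 769-P, beside the same shares of all genes. ERBB2, a receptor kinase that partners B-type plexins, rose at every time in 769-P, by 0.44 ± 0.08 at 24 h (adjusted p = 0.000289). ADAM17, a sheddase, rose in Caki-1 by 0.55 ± 0.06 at 24 h (adjusted p = 1.63e-06), and ADAM10, a related sheddase, fell by 0.43 ± 0.10 in 769-P at 24 h (adjusted p = 0.00201).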

How the data were processed

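Expression was measured on 24 Affymetrix PrimeView arrays, with 3 arrays in each of 8 groups taken from the labels. The labels call these biological replicates without saying how cultures were separated, so p-values measure the spread between these arrays. The deposited values are log2 signals per probe set, and the submitters' processing notes name MAS5 with no version or settings. How arrays were scaled is not given in the sources used here, and array number limits the precision.

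Of 49395 probe sets, 44988 named exactly 1 of 18132 genes in the platform annotation, with symbols updated through RefSeq (GRCh38.p14). The brightest such probe set over 24 arrays stood for a gene. A gene was tested in a line when its mean over the 12 arrays exceeded the 40th percentile of all probe sets. For comparisons between the lines, passing in 1 line was enough. limma 3.58.1 in R 4.3.3 fitted group means with an intensity trend, over the 12 arrays of a line, or over all 24 for comparisons between the lines. P-values were two-sided and adjusted by Benjamini-Hochberg over all genes tested, with a threshold of 0.05, and no p was adjusted over a list. The fits were tested on simulated data. The 10 genes and the 4 other lists (the rest of the family, plexin effectors, co-receptors with VEGF genes, and proteases) were chosen with earlier results of these data known. Genes named from the lists were drawn from those called at all 3 times in a line in 1 direction, and from up to 4 per comparison with the largest called change in each direction. Where all arrays of a group lay under the testing level, a fold is a bound computed against that level. VEGFD, GIPC1, RHOD and RASA1 had no single-gene probe set and were not analysed here.

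Equally numbered arrays were checked as pairs through the correlation of their deviations from group means. In 3 comparisons of 769-P every pair was above 0.1: 0.11 to 0.36 for 6 h with DMSO, 0.12 to 0.17 for 24 h with DMSO and 0.10 to 0.19 between 24 h and 6 h, and the other comparisons, 769-P at 12 h among them, did not. Alternatives were another scaling, probe set rule, filter, variance model, block and array set, and leaving out each array. Tables and figures used the R package data.table (version 1.17.8), Python 3.11.15 and matplotlib 3.10.9.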

Additional observations from a re-analysis of the deposited data

Results flagged for a closer look

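These results are listed because the response to dasatinib differed between the lines by an interaction test in limma (Caki-1 change minus 769-P change, log2 scale, n = 3 arrays a group). SEMA3C differed by 1.19 at 6 h, 1.22 at 12 h and 1.73 at 24 h, since it fell less in Caki-1 than in 769-P. At 24 h NRP1 differed by -0.50, NRP2 by 0.80, PLXNA1 by -0.36 and PLXNB2 by 0.33. These 4 were not called when a gene's probe sets were averaged. For NRP1, NRP2 and PLXNA1 that average includes probe sets under the testing level. The 24 h NRP2 arrays of 769-P lay under the testing level, so the size of the NRP2 difference rests on signals under it. SEMA5A is not listed, since it was under that level in Caki-1.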

How the results depend on the processing

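Counts of the 10 genes called moved by more than 1.5 times under 1 alternative and 1 array left out. With the mean of all single-gene probe sets, the count was 0 in Caki-1 at 6 h (2 with the brightest probe set), 3 in Caki-1 at 24 h (6) and 2 for the difference between the lines at 24 h (6). For SEMA3C, SEMA3F, SEMA4B, NRP1, NRP2 and PLXNA1 this mean includes probe sets under the testing level. A call lost with it therefore does not by itself show that the brighter probe sets disagree. Leaving out 1 array gave 2 to 3 calls in Caki-1 at 6 h, 4 to 6 at 12 h and 5 to 7 at 24 h. In 769-P it gave 2 to 3, 3 to 4 and 4 to 5, and for 24 h against 6 h it gave 4 in Caki-1 and 5 to 6 in 769-P. For the difference between the lines it gave 2 to 3 at 6 h and at 12 h and 3 to 6 at 24 h (3 without Caki-1 dasatinib 24 h replicate 3), and between DMSO arrays 5 to 8. The SEMA3B difference between the lines at 24 h, 0.05 with the brightest probe set, was -0.69 with the most variable one (adjusted p = 0.00671), and the cause was not tested. Among single-gene results, 1552 kept their direction and side of the threshold, 65 lost a call and 32 gained one. Another 40 were called in neither setting and changed sign, with sizes of at most 0.26, and 1 changed sign with a call.

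With the replicate number as a block, SEMA4B in 769-P at 6 h (-0.27, adjusted p = 0.0457) and PLXNB2 in 769-P at 12 h (0.19, adjusted p = 0.029) gained a call, and no other call of the 10 genes changed. Signal limits SEMA3A in both lines, SEMA5A in Caki-1 and NRP2 in 769-P at 24 h, which lay under the testing level.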
